A study of Mus musculus with 11 samples.

Results

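The GINS and MCM genes encode the core of the DNA helicase that opens the double helix at every replication fork. The 10 genes described here are the 4 GINS subunit genes, Gins1, Gins2, Gins3 and Gins4, and the 6 MCM subunit genes, Mcm2 to Mcm7, of 18269 genes in the deposited table. Gins2 came first: it was chosen by its CPM, which was lower after young serum than after saline in these same libraries. The other 9 were added by name, as the partners of Gins2 in one machine, and the question was whether its difference was shared by them. The difference of Gins2 between young serum and saline is therefore given as a description with no test.

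The libraries were made from total RNA of the tibialis anterior, a muscle on the front of the lower leg made mostly of fast fibres. All 11 came from C57BL/6 mice aged 21 to 24 months in an injury model. The groups differed in what was injected: saline (4 libraries, replicates 2, 3, 4 and 6), young serum (4 libraries, replicates 1 to 4) or young serum depleted of extracellular vesicles (EVs, the membrane-bound particles that cells release; 3 libraries, replicates 2 to 4; called EV-depleted serum below). Neither a separate animal for each library nor the time between injury and sampling is stated in the labels, so the tests measure the spread between these libraries, which may be technical in part. The libraries held 36.4 to 42.2 times 1e+06 reads, as estimated from the steps between low values. Levels are in CPM, the reads of a gene scaled to 1000000 reads over all genes of a library, which is not scaled by gene length.

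A cell prepares its origins of replication in G1. The origin recognition complex, with Cdc6 and Cdt1, loads rings of the MCM subunits onto DNA, where they stay inactive. At the start of S phase, Cdc45 and the GINS tetramer bind each ring and turn it into the active helicase, and DNA polymerase epsilon is held to it through GINS. Transcription of most of these genes rises with the E2F factors when a cell leaves quiescence. Mature muscle fibres do not divide. In injured muscle, satellite cells, fibro-adipogenic progenitors, endothelial cells and immune cells do, so a transcript of this machinery in whole muscle can come from several cell types. In bulk tissue, fewer cells of a type and less RNA per cell cannot be told apart.

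Promoter sequence was available for 6 of the 10 genes (Gins3, Mcm2, Mcm3, Mcm5, Mcm6 and Mcm7), from RefSeq on GRCm38.p6. It was searched for the E2F words TTTCCCGC, TTTCGCGC, TTTGCCGC and TTTGGCGC on either strand, in the 250 bases before each start site. Mcm3, Mcm5 and Mcm6 are shown as examples with 0, 2 and 3 such words. Each is written 5′ to 3′ on the strand of its gene, with the E2F words in capitals. The stretches are chr1:20820313-20820432 on the minus strand for Mcm3, chr8:75109344-75109467 on the plus strand for Mcm5 and chr1:128359706-128359825 on the minus strand for Mcm6.
Mcm3: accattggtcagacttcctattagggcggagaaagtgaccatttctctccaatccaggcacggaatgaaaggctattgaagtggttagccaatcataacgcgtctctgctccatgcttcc
Mcm5: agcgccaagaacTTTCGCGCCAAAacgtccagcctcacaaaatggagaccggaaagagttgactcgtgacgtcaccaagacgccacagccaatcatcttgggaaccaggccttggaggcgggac
Mcm6: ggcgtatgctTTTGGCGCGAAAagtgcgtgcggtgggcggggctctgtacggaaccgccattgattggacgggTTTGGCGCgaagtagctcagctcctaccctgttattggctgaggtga

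Mcm5 held 2 overlapping words, 153 and 149 bases before its start. Mcm6 held 3, of which those at 110 and 106 bases overlapped and the third lay at 47 bases. Gins3 held 1 word at 41 bases, and the upstream of 2 Mcm7 starts held 1 at 165 bases, while Mcm2 and Mcm3 held none of these exact words in this window. Of 32851 mouse promoters searched in the same way, 1.86% held at least 1 of them. CCAAT, a word of many promoters active in dividing cells, lay on either strand in 33.8% of promoters and in all 6 genes, 3 times in Mcm3. A match is a description of the letters and not a measured binding site.

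The GINS subunits stood at very different levels. With GENCODE M21 lengths Gins4 was the most abundant of the 10 genes per length, at 7.68 CPM per kb of its longest coding transcript (mean of 11 libraries), followed by Mcm2 (3.30), Mcm7 (2.86) and Gins2 (2.27). Gins1 (1.21), Mcm3 (1.07) and Mcm4 (1.03) came next, then Mcm6 (0.669), Mcm5 (0.305) and Gins3 (0.238). Gins4 stood clear of its neighbour, at 5.55 CPM per kb in its lowest library against 3.70 for Mcm2 in its highest, while each later pair of neighbours in this order overlapped between libraries. Gins2 moved most within it. In saline Gins2 ranked the second, at 4.16 ± 0.863 CPM per kb (SD, n = 4), between Gins4 (8.61 ± 2.25) and Mcm2 (3.33 ± 0.448). In EV-depleted serum it ranked the fourth, at 1.63 ± 0.847 (n = 3), and in young serum the seventh, at 0.849 ± 0.575 (n = 4), below Gins1, Mcm3 and Mcm4. These ranks of Gins2 depend on the length it is given. Cut to the RefSeq span, its transcript has 1038 in place of 3900 bases, and its level was 15.6 ± 3.24 CPM per kb in saline, 6.13 ± 3.18 after EV-depleted serum and 3.19 ± 2.16 after young serum. It then ranked above Gins4 in saline, the second in EV-depleted serum and the third in young serum. The deposited span of Gins2 matches the longer GENCODE model, so CPM given for that span were divided by the shorter length here. Its levels and ranks over the RefSeq length may therefore be too high.

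Gins2, the subunit also called PSF2, was the gene with the widest range. In saline it read 11.6, 19.2, 18.0 and 16.0 CPM in replicates 2, 3, 4 and 6. After young serum it read 3.83, 2.30, 6.18 and 0.950 CPM in replicates 1 to 4, and after EV-depleted serum 6.44, 9.63 and 3.02 CPM in replicates 2 to 4. Every library of either serum lay below every saline library, and the serum groups overlapped each other. In young serum against saline the log2 difference was -2.13 on the log2(CPM + 1) scale, or 0.228-fold, the fifth lowest of 13187 tested genes. That value chose the gene and is not evidence for it.

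**Figure D1:**
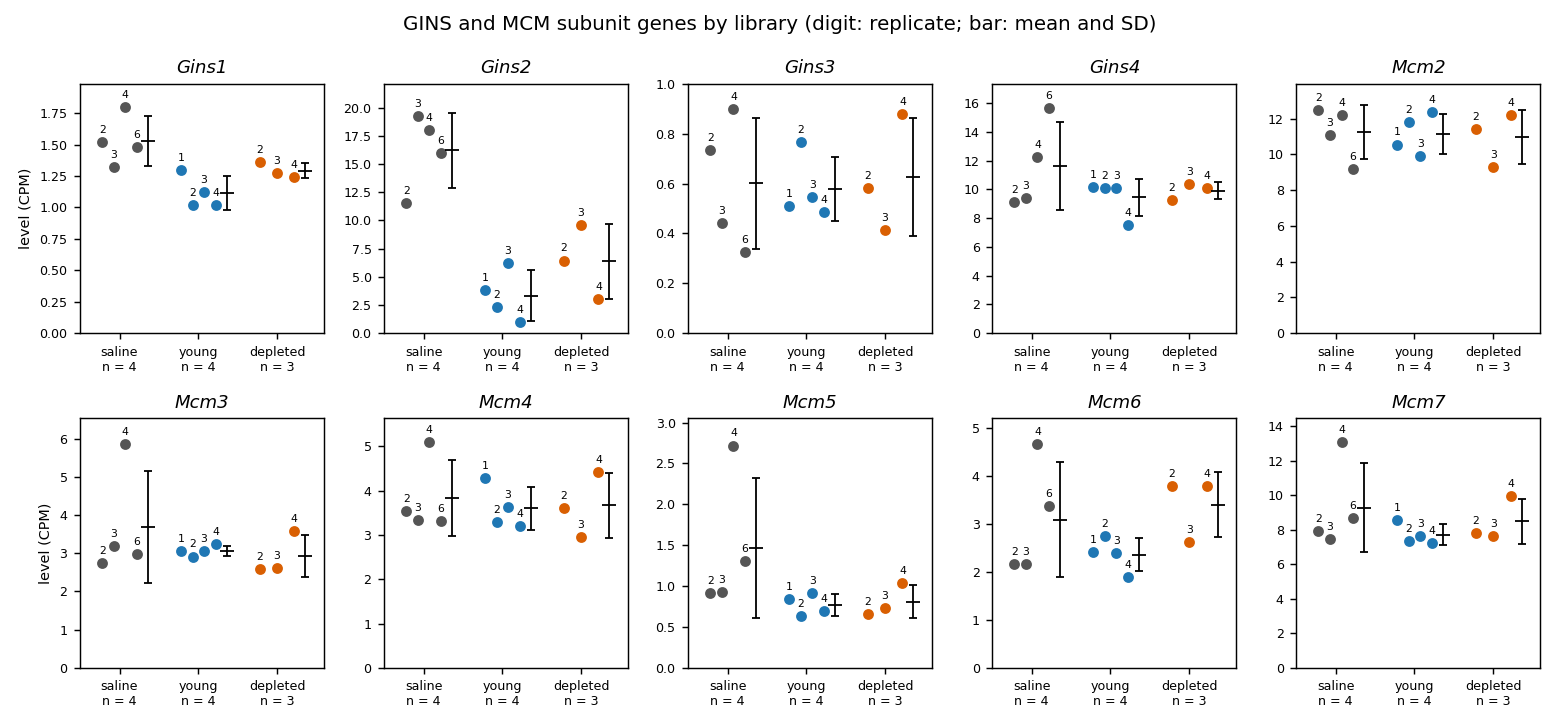
Level of each GINS and MCM gene in CPM (vertical axes, each from 0) in the 11 libraries, by group (horizontal axes). Points are libraries with their replicate number, and bars are the group mean and SD; Gins2 alone separates saline from both sera, and saline replicate 4 stands above the other libraries for Mcm3, Mcm4, Mcm5, Mcm6 and Mcm7.

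EV-depleted serum against saline did not itself choose Gins2. It shares the saline libraries with the first comparison, and the saline values of Gins2 took part in its choice. The mean of Gins2 was 6.36 ± 3.30 CPM after EV-depleted serum (SD, n = 3) against 16.2 ± 3.37 in saline (n = 4). The log2 difference was -1.31 ± 0.42 (SE, 95% interval -2.22 to -0.40), which may lie too low through that choice. Its adjusted p by limma was 0.391, so it did not pass, and it was the 48th lowest of 13187 fold changes. With limma array weights, which count less even libraries for less, the value was -1.34 and the adjusted p 0.0346. That setting called 1794 of 13187 genes in this comparison, where the main fit called 0. Under the other alternatives run the adjusted p of Gins2 by limma was 0.137 to 0.771. Between young and EV-depleted serum the log2 difference was -0.82 ± 0.42, with an interval from -1.73 to 0.09 and an adjusted p of 0.99998 by limma. A difference between the sera was therefore not shown, and a log2 difference of -1.73 is not outside this interval. The low young serum values of Gins2 took part in its choice, so this difference and its interval may lie too low. Since the saline libraries serve both serum comparisons, their values stand side by side and do not support each other.

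Gins1, the subunit called PSF1, read 1.52, 1.32, 1.80 and 1.48 CPM in saline, 1.30, 1.02, 1.12 and 1.02 CPM after young serum, and 1.36, 1.27 and 1.24 CPM after EV-depleted serum. The young serum libraries all lay below the saline libraries, but the margin was 1.30 against 1.32 CPM. The log2 difference was -0.26 ± 0.13 (SE; 95% interval -0.53 to 0.02, adjusted p = 0.247 by limma). Against saline, EV-depleted serum gave -0.14 ± 0.14 (adjusted p = 0.620), and its libraries overlapped those of saline.

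Gins4, also called SLD5, holds the tetramer together. It read 9.14, 9.41, 12.3 and 15.7 CPM in saline, and the last of these, in replicate 6, was the highest of all libraries. After young serum it read 10.1, 10.1, 10.1 and 7.49 CPM, and after EV-depleted serum 9.25, 10.4 and 10.1 CPM, so both serum groups lay within or close to the lower saline libraries. The log2 differences from saline were -0.25 ± 0.17 (adjusted p = 0.376 by limma) after young serum and -0.18 ± 0.19 (adjusted p = 0.634) after EV-depleted serum.

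Gins3, or PSF3, was near the floor of detection. It lay between 0.327 and 0.899 CPM, about 13 to 38 reads per library, and never reached the 1 CPM that the filter on low values asked of 3 libraries. Its group means were 0.600 ± 0.263 CPM in saline, 0.578 ± 0.130 after young serum and 0.626 ± 0.235 after EV-depleted serum (SD; n = 4, 4 and 3). The exact permutation tests of CPM gave p = 0.914 and 0.971 for the sera against saline and 0.686 between the sera (adjusted 0.971 for each; two-sided). With 4 against 4 libraries the smallest p this test can give is 0.0286, and with 4 against 3 it is 0.0571.

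The ratio of Gins2 to Gins4, subunits present once each in the tetramer, sets the contrast out within each library. It was 1.27, 2.04, 1.47 and 1.02 in saline, 0.377, 0.228, 0.614 and 0.127 after young serum, and 0.696, 0.928 and 0.300 after EV-depleted serum. The ratio of Gins1 to Gins4 lay between 0.0947 and 0.167 in all 11 libraries, with both extremes in saline. Against a subunit of its own complex, Gins2 was lower in every serum library than in any saline library, while Gins1 was not. The Gins2 values of saline and young serum chose the gene, so this contrast is a description and not evidence for it.

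Mcm2, a subunit that also binds histones at the fork, was the steadiest of the 10 genes. It read 12.5, 11.1, 12.2 and 9.15 CPM in saline, 10.5, 11.8, 9.88 and 12.3 CPM after young serum, and 11.4, 9.29 and 12.2 CPM after EV-depleted serum. The groups overlapped throughout, with a coefficient of variation of 11.1% over 11 libraries. Its log2 differences from saline were -0.01 ± 0.14 (95% interval -0.31 to 0.30) after young serum and -0.03 ± 0.15 (-0.36 to 0.30) after EV-depleted serum, so changes past about 0.36 in log2 were outside both intervals.

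Mcm4, Mcm6 and Mcm7 form a subcomplex that has helicase activity of its own. Mcm7 read 7.91, 7.48, 13.1 and 8.67 CPM in saline, 7.25 to 8.57 CPM after young serum and 7.66 to 9.95 CPM after EV-depleted serum. Mcm4 read 3.53, 3.35, 5.11 and 3.32 CPM in saline, 3.19 to 4.28 CPM after young serum and 2.96 to 4.43 CPM after EV-depleted serum. In both genes saline replicate 4 was the highest of 11 libraries, and the other saline libraries lay within the range of the sera. Mcm6 read 2.16, 2.17, 4.68 and 3.37 CPM in saline, 1.89 to 2.75 CPM after young serum and 3.79, 2.62 and 3.81 CPM after EV-depleted serum, and was the only one of the 9 tested genes with a higher fitted value in EV-depleted serum than in saline (0.14 ± 0.22, adjusted p = 0.769 by limma). The log2 differences in young serum against saline were -0.21 ± 0.17 for Mcm7, -0.06 ± 0.16 for Mcm4 and -0.25 ± 0.20 for Mcm6, with adjusted p of 0.453, 0.846 and 0.475 by limma.

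Mcm5 borders the gate through which DNA enters the ring, and Mcm3 is its neighbour on the other side. Mcm3 read 2.74, 3.18, 5.87 and 2.97 CPM in saline and 2.91 to 3.24 CPM after young serum. After EV-depleted serum it read 2.59, 2.62 and 3.57 CPM. Mcm5 read 0.914, 0.929, 2.72 and 1.31 CPM in saline, 0.841, 0.632, 0.912 and 0.690 CPM after young serum, and 0.656, 0.727 and 1.04 CPM after EV-depleted serum. All young serum values of Mcm5 lay below all saline values, by 0.912 against 0.914 CPM at the closest, and the gene passed the filter through saline replicates 4 and 6 and EV-depleted replicate 4. Its log2 difference in young serum against saline was -0.43 ± 0.21 (95% interval -0.88 to 0.03, adjusted p = 0.246 by limma), and that of Mcm3 was -0.16 ± 0.19 (adjusted p = 0.630).

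**Figure D2:**
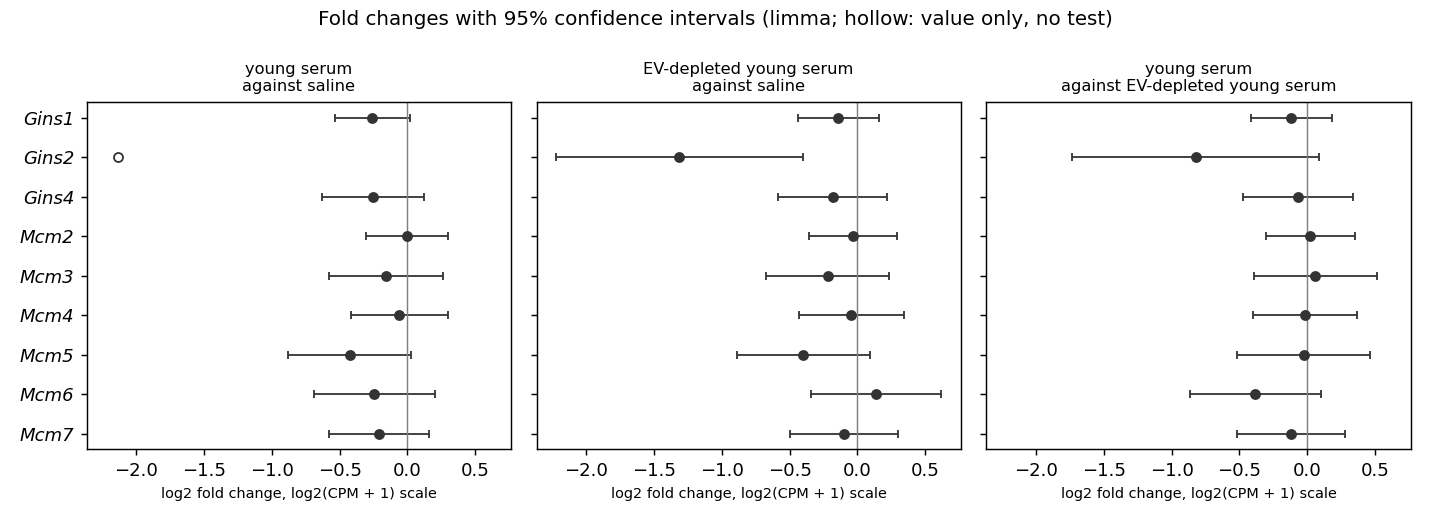
Log2 fold changes on the log2(CPM + 1) scale (horizontal axes) of the 9 tested genes (vertical axis) in the 3 comparisons, with 95% confidence intervals from limma; the hollow point is Gins2 in young serum against saline, shown with no interval since that value chose it. The other 8 genes lie between -0.43 and 0.14 in all 3 panels, and each of their intervals includes 0.

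Of the 8 tested genes other than Gins2, 0 passed at an adjusted p under 0.05 by limma in any of the 3 comparisons, where the background was also 0.0% of 13187 genes. At an unadjusted p under 0.05 the background was 21.9% of genes in young serum against saline, 12.1% in EV-depleted serum against saline and 2.23% between the sera. Of the same 8 genes, 0 reached it in any of the 3. Groups that did not overlap, with serum lower, were found for Gins1 and Mcm5 in young serum against saline (background 6.08%). Gins2 did not overlap there either, but it was chosen there. In EV-depleted serum against saline it was Gins2 (background 4.03%), whose saline values took part in its choice. Between the sera it was 0 genes (background 4.16%).

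The 8 tested partners leaned to lower values than saline, by a small amount. In young serum against saline 8 of 8 had a fitted value below 0, with a median log2 difference of -0.23, where 52.5% of all tested genes were lower and their median was -0.02. In EV-depleted serum against saline 7 of 8 were lower with a median of -0.12, beside 50.4% and a median of -0.00250 for all genes. Between the sera 6 of 8 were lower in young serum, with a median of -0.05 beside 51.3% and -0.00486. Without saline replicate 4, 5 of 8 were lower in young serum (median -0.06) and 4 of 8 in EV-depleted serum (median -0.01). Of all tested genes 42.5% and 39.6% were then lower, with medians of 0.07 and 0.08. Gins2 itself moved little, to -2.08 and -1.26.

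Saline replicate 4 stood apart for this machinery, though not for it alone. By the median over genes of at least 1 CPM in all libraries, its CPM was 1.14 times the geometric mean of the 11 libraries. No other library had a larger factor, but that of EV-depleted replicate 4 was close, at 1.11. EV-depleted replicate 4 was the highest library for 25.8% of all tested genes and for 0 of the 10 genes. Saline replicate 4 was the highest of 11 libraries for Gins1, Gins3, Mcm3, Mcm4, Mcm5, Mcm6 and Mcm7, 7 of 10 genes, while it was the highest for 33.8% of all tested genes. The 6 MCM genes summed to 43.6 CPM there, against 28.2 to 29.7 CPM in the other saline libraries, 27.5 to 29.7 CPM after young serum and 25.9 to 34.98 CPM after EV-depleted serum. Mki67, the proliferation marker, read 1.44 CPM in it against 0.244 to 0.478 CPM in the other saline libraries, and Top2a, the topoisomerase of dividing cells, 1.40 against 0.196 to 0.402 CPM. The exceptions were Gins2, which was higher in saline replicate 3 (19.2 against 18.0 CPM), Gins4, highest in saline replicate 6, and Mcm2, highest in saline replicate 2.

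Markers of some other cell types were also high in the same library. The summed level of 10 macrophage markers was 338 CPM in saline replicate 4, 127 to 231 CPM in the other saline libraries, 53.5 to 157 CPM after young serum and 72.3 to 124 CPM after EV-depleted serum, and 9 of the 10 genes were highest in it. In either serum 10 of 10 were lower than in saline (medians -0.80 and -0.94), with 0 past an adjusted p of 0.05 by limma. Of all tested genes 52.5% and 50.4% were lower. Without saline replicate 4 the counts were 9 and 10 of 10, beside 42.5% and 39.6% of all tested genes. All 6 adipocyte markers were highest in saline replicate 4 too, with a sum of 5496 CPM against 230 to 500 CPM in the other saline libraries, and so were 6 of 8 endothelial and 8 of 9 measured T, NK and B cell markers. The counts were lower for fibro-adipogenic progenitor (3 of 8) and satellite cell markers (1 of 6). They were 1 of 5 for red blood cell and 0 of 10 for muscle fibre markers, beside 33.8% of all tested genes. The 10 muscle fibre markers, which summed to 141508 to 190022 CPM in saline and to values within that range in both sera, matched the labelled tissue. Their lowest sum, 141508 CPM, was that of saline replicate 4. Satellite cell markers summed to 48.8 to 68.5 CPM over all libraries, with Pax7, the defining marker, at 1.23 ± 0.194 CPM in saline and 1.95 ± 0.258 CPM after young serum (SD, n = 4 each). The part of these cells in the levels of the GINS and MCM genes was not tested.

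**Figure D3:**
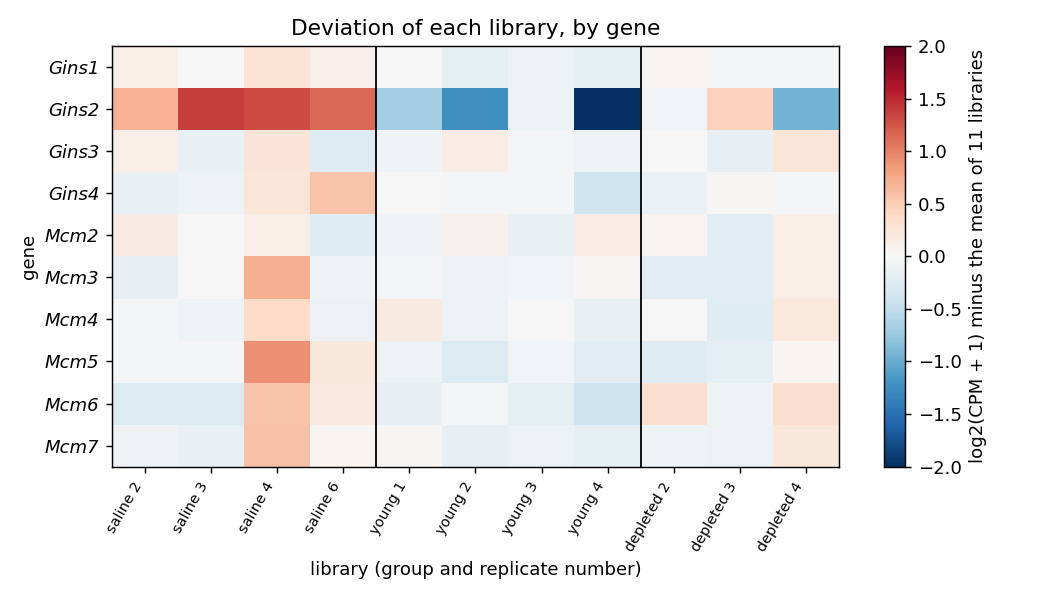
Deviation of each library (horizontal axis) from the mean of 11 libraries on the log2(CPM + 1) scale, for each of the 10 genes (vertical axis). Red is above and blue below the gene's mean; the Gins2 row changes colour between saline and young serum, while the rows of Mcm3, Mcm4, Mcm5, Mcm6 and Mcm7 are reddest in the single column of saline replicate 4.

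Across libraries the MCM genes varied with each other more than with Gins2. Among the 15 MCM pairs the median Pearson r of log2(CPM + 1) was 0.63 over 11 libraries, from 0.06 for Mcm2 with Mcm6 to 0.91 for Mcm5 with Mcm7. Without saline replicate 4 the median fell to 0.30, and Mcm2 with Mcm5, Mcm6 and Mcm7, and Mcm3 with Mcm6, turned negative. The 6 GINS pairs had a median of 0.37, or 0.13 without that library. These are descriptions over libraries that share their groups, depth and scaling, and carry no test.

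With Gins2, the closest partner was Gins1 (r = 0.79 over 11 libraries; 0.78 without saline replicate 4), which ranked 446 among all tested genes. Gins4 followed at 0.58 and Mcm5 at 0.56, while Mcm7 (0.34), Mcm6 (0.29), Mcm3 (0.22) and Mcm4 (0.11) were lower and Gins3 (-0.17) and Mcm2 (-0.33) were negative. The 5 tested genes most like Gins2 were Marchf2, a membrane ubiquitin ligase (0.97), Pagr1a (0.96), the splicing factor gene Phf5a (0.95), the proteasome ATPase gene Psmc5 (0.95) and the mitochondrial ribosome gene Mrpl42 (0.94). None of the 5 is in the replication lists used here, and their range was narrow beside that of Gins2. Marchf2 averaged 89.1 ± 4.26 CPM in saline, 69.6 ± 4.29 after young serum and 78.2 ± 6.48 after EV-depleted serum (SD; n = 4, 4 and 3). Since Gins2 had been chosen for a difference between groups, genes that differ between the same groups are close to it by construction.

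Within its groups Gins2 varied more than most genes of like level. Its SD within groups was 0.63 on the log2 scale, at the percentile 95.2 of the 4312 genes with a mean of 5 to 20 CPM, whose median was 0.27. Gins4, Mcm7 and Mcm2, of like abundance, stood at the percentiles 42.1, 39.1 and 17.7 of the same genes. Over all groups its highest library exceeded its lowest 20.2 times, where the other 9 genes ranged from 1.36 times (Mcm2) to 4.31 times (Mcm5). For Gins2 this ratio runs from a saline to a young serum library. It thus holds the difference that chose the gene and is a description only. The lowest library of Gins2 held about 37 reads, for which counting alone gives a coefficient of variation of 16.4%, and the highest held about 786.

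The position of Gins2 bears on how its level is read. In the deposited coordinates on mm10, Gins2 spans 120578633 to 120589304 of chromosome 8 on the minus strand, and Gse1 spans 120228456 to 120581390 on the plus strand, so the genes run towards each other and their ends overlap. In GENCODE M21, 2758 of the 3900 exon bases of Gins2 (70.7%) lie opposite the last exon of Gse1, the one that holds its 3′ untranslated region. The RefSeq models are shorter there: Gins2 starts at 120581266, Gse1 ends at 120581383, and they share 118 bases. The sources used here do not say whether reads were counted by strand. Without strand, reads within the bases shared by a gene and its antisense partner cannot be told apart. Galnt2l also spans Gins2 on the opposite strand, with 0 shared exon bases.

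Gse1, which encodes a protein found in co-repressor complexes, ran against Gins2. It read 43.1, 21.7, 28.6 and 5.63 CPM in saline replicates 2, 3, 4 and 6, then 48.3, 56.3, 38.9 and 60.8 CPM after young serum, and 39.3, 30.1 and 47.5 CPM after EV-depleted serum. Within each serum group the order of the libraries by Gse1 was the exact reverse of that by Gins2. In saline replicate 2, with the lowest Gins2, had the highest Gse1, and replicate 6, the lowest in Gse1, broke the reverse order. The log2 difference of Gse1 was 1.29 ± 0.45 in young serum against saline and 0.90 ± 0.49 in EV-depleted serum against saline, with adjusted p of 0.180 and 0.435 by limma, so neither passed.

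Pearson r between the CPM of Gins2 and Gse1 was -0.86 over 11 libraries, -0.89 without saline replicate 6 and -0.98 over the 7 serum libraries. On the log2(CPM + 1) scale Gse1 was the sixth most negative of all tested genes over the serum libraries (r = -0.97) and stood at 1205 from the most negative over all 11 (r = -0.71). The pair was singled out for its position, and its values are descriptions over libraries that share groups and scaling. Gins2 made up 21.2% to 74.0% of the sum of both genes in saline, 1.54% to 13.7% after young serum and 5.98% to 24.2% after EV-depleted serum. The sum itself was 54.7, 40.9, 46.6 and 21.7 CPM in saline, 52.2, 58.6, 45.1 and 61.8 CPM after young serum, and 45.8, 39.8 and 50.6 CPM after EV-depleted serum. It overlapped between all 3 groups. Saline replicate 4 and EV-depleted replicate 3 were close in Gse1, at 28.6 and 30.1 CPM. Their Gins2 read 18.0 and 9.63 CPM, and the saline values of Gins2 took part in its choice. The part of the overlap in the level of Gins2 was not tested.

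**Figure D4:**
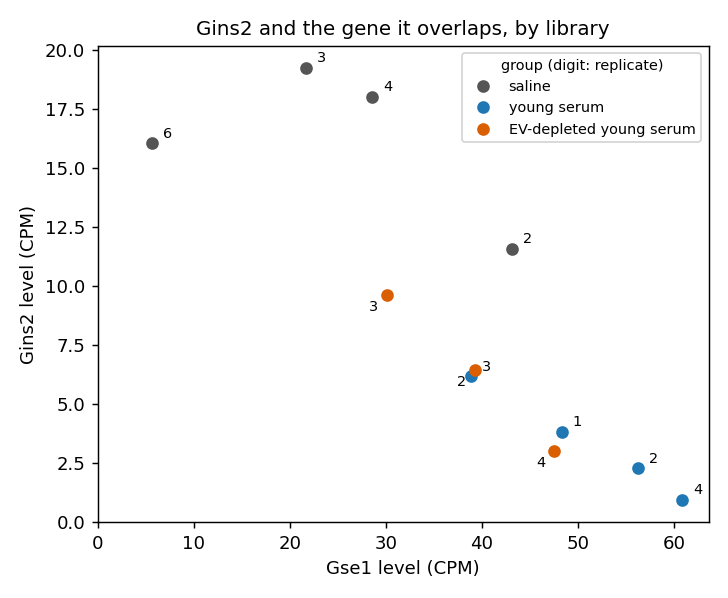
Level of Gins2 (vertical axis, CPM) against that of Gse1, the gene on the opposite strand that overlaps its end (horizontal axis, CPM), in the 11 libraries, coloured by group and marked with the replicate number. The 7 serum libraries descend from 9.63 CPM of Gins2 at 30.1 CPM of Gse1 to 0.950 CPM at 60.8 CPM, and saline replicates 2 and 4 lie above serum libraries of like Gse1 level.

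Among the other 9 genes, Mcm7 overlaps neighbours by little in GENCODE M21: 64 of its 2962 exon bases with Cops6 and 321 with Ap4m1, on the opposite strand. None of the others overlapped another gene of the table.

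The genes that load and fire the MCM ring were mixed. In the licensing list of 12 genes, 9 were tested, of which 3 were lower and 6 higher in young serum than in saline (median 0.11) and 2 lower and 7 higher in EV-depleted serum (median 0.15). Orc6, a subunit of the origin recognition complex, averaged 2.78 ± 0.747 CPM in saline, 1.96 ± 0.346 after young serum and 1.96 ± 0.597 after EV-depleted serum, with adjusted p of 0.289 and 0.448 by limma. Gmnn, the inhibitor of Cdt1, gave a log2 difference of -0.32 ± 0.18 and Orc2 one of 0.30 ± 0.16, the first in young and the second in EV-depleted serum against saline. Mcm8, a helicase gene of DNA repair, gave 0.42 ± 0.19 in EV-depleted serum against saline (adjusted p = 0.412 by limma), the only one of the list at an unadjusted p under 0.05.

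The loaders themselves were scarce. Cdt1 read 0.508, 1.69, 1.37 and 0.955 CPM in saline, 0.535, 0.385, 0.365 and 0.281 CPM after young serum, and 0.607, 0.623 and 0.440 CPM after EV-depleted serum. Saline replicate 2, also the lowest saline library for Gins2, was the one that overlapped the sera. Cdc6 lay between 0.229 and 0.709 CPM in saline, 0.0825 and 0.256 CPM after young serum and 0.155 and 0.462 CPM after EV-depleted serum. Both were under the filter on low values and were not tested.

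Cdc45, the third part of the active helicase beside MCM and GINS, did not follow Gins2. It read 1.96, 2.33, 3.996 and 2.31 CPM in saline, 2.61 to 2.78 CPM after young serum and 2.36 to 3.11 CPM after EV-depleted serum. Its log2 difference from saline was 0.04 ± 0.17 in young serum (95% interval -0.33 to 0.41) and 0.02 ± 0.18 in EV-depleted serum, with adjusted p of 0.901 and 0.968 by limma. Of 5 tested activation and replisome genes, 3 were lower and 2 higher in either serum against saline, with medians of -0.18 and -0.10. Tipin of the fork protection complex gave -0.24 ± 0.15 and Topbp1, an activator of firing, 0.28 ± 0.18 in young serum against saline. Mcm10, which acts on the assembled helicase, stayed at or below 0.615 CPM in every library, again with its highest value in saline replicate 4.

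The polymerases and fork factors leaned to lower values. Of 20 tested, 17 were lower in young serum than in saline and 17 in EV-depleted serum, with medians of -0.23 and -0.15, and 0 passed at an adjusted p under 0.05 by limma. At an unadjusted p under 0.05, 5 were lower in young and 4 in EV-depleted serum, and 0 were higher, beside backgrounds of 11.4% and 5.59% for lower genes. Between the sera 14 of 20 were lower in young serum and 0 reached it, beside a background of 1.75%. Without saline replicate 4, 17 and 14 of 20 were lower in young and EV-depleted serum than in saline, beside 42.5% and 39.6% of all tested genes. Without saline replicate 6 the counts were 14 and 14, beside 57.9% and 55.0%. With all libraries the shares were 52.5% and 50.4%. Pold4, a small subunit of polymerase delta, averaged 18.5 ± 8.63 CPM in saline, 9.15 ± 1.38 after young serum and 10.3 ± 0.264 after EV-depleted serum, and Rfc2 of the clamp loader 17.2 ± 3.21 CPM in saline and 12.3 ± 0.708 after young serum. Both had an adjusted p of 0.180 by limma in young serum against saline.

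Pcna, the sliding clamp, read 16.2, 17.0, 23.0 and 17.4 CPM in saline, 14.5 to 17.5 CPM after young serum and 15.4 to 17.6 CPM after EV-depleted serum, a log2 difference of -0.22 ± 0.13 and -0.14 ± 0.14 (adjusted p = 0.308 and 0.623 by limma). Pole2, the polymerase epsilon subunit that GINS holds, was scarce at 0.104 to 0.599 CPM over all libraries. The S phase nucleotide and chromatin list split 4 lower and 3 higher of 7 tested in either serum, with medians of -0.15 and -0.000843. Rrm2, the regulated subunit of ribonucleotide reductase, lay between 0.457 and 1.23 CPM in saline and 0.179 and 0.652 CPM after young serum.

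**Figure D5:**
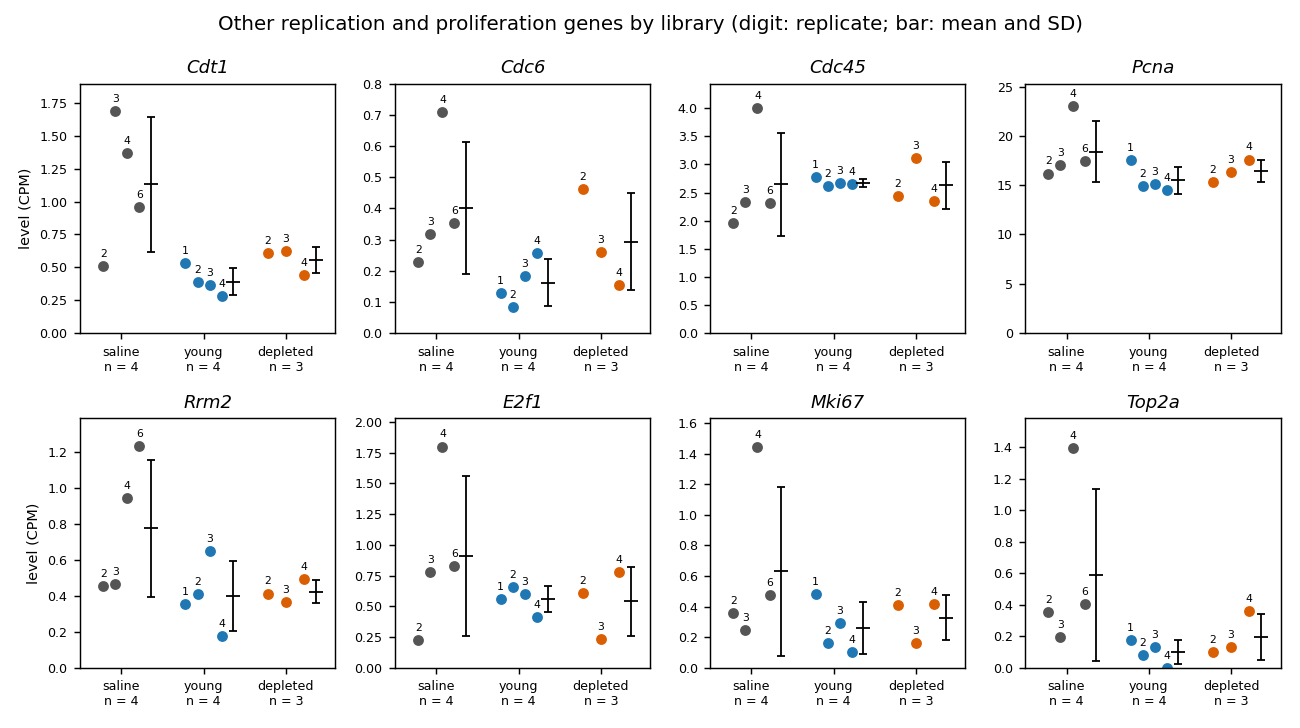
Levels in CPM (vertical axes, each from 0) of 8 other replication and proliferation genes in the 11 libraries, by group (horizontal axes), with the replicate number at each point and bars for the group mean and SD. Cdc6, Cdc45, Pcna, E2f1, Mki67 and Top2a all have their highest value in saline replicate 4, and no gene separates saline from both sera.

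Most genes of the mitosis and proliferation list were under the filter on low values. Mki67 averaged 0.630 ± 0.550 CPM in saline, 0.261 ± 0.169 after young serum and 0.329 ± 0.147 after EV-depleted serum (SD; n = 4, 4 and 3). Top2a averaged 0.587 ± 0.546, 0.098 ± 0.076 and 0.197 ± 0.145 CPM, and it was listed at 0 in young serum replicate 4. Of 20 genes in the list 4 were tested, of which 3 were lower in either serum than in saline, with a median of -0.17 in each. The largest of these levels was that of Ube2c, the ubiquitin carrier of the anaphase complex, at 225 ± 36.9 CPM in saline, 160 ± 13.9 after young serum and 168 ± 49.7 after EV-depleted serum. Its adjusted p was 0.182 and 0.404 by limma.

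Regulators of entry into S phase were likewise split, with 10 of 16 tested lower in either serum than in saline (medians -0.15 and -0.11). E2f1, an activator of the MCM and GINS genes in many cells, read 0.229, 0.782, 1.80 and 0.830 CPM in saline, 0.409 to 0.659 CPM after young serum and 0.234 to 0.777 CPM after EV-depleted serum. E2f4 and Rbl2, which repress such genes in resting cells, had higher values in young serum than in saline, by 0.31 ± 0.11 and 0.52 ± 0.17 in log2 (adjusted p = 0.185 and 0.180 by limma). Cdkn1a, the inhibitor p21, gave -0.37 ± 0.17 in young serum against saline (adjusted p = 0.240) and -0.01 ± 0.19 in EV-depleted serum (adjusted p = 0.986). Over these 6 replication and cell cycle lists, 52 of 99 genes in the table (52.5%) had their highest library in saline replicate 4. These genes include some under the filter on low values. Over all genes, tested or not, the share was 35.1%.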

How the data were processed

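RNA was measured in 11 libraries. The authors deposited CPM per gene, scaled to 1000000 reads over 18269 genes with an offset of 0.0001 as read from the values, and TPM, which the values show to be CPM divided by the genomic span of each gene. CPM was used. FastQC, STAR, DESeq2 and mm10 are named in the submitters' processing notes without versions or roles. Of low values (0.01 to 1 CPM), 75.6% to 79.1% were whole reads within 0.1, too few for a count model. Intervals of read numbers are not given, and read numbers are approximate.

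A gene entered the tests when 3 or more libraries reached 1 CPM (13187 genes; 5082 did not), which held 9 of the 10 GINS and MCM genes. limma 3.58.1 in R 4.3.3 fitted log2(CPM + 1) for 3 groups in 1 model over 11 libraries, with eBayes and a mean-variance trend. The two-sided tests had Benjamini-Hochberg adjustment over all tested genes at 0.05, and a fold change on this scale understates the change of low genes. Gins3 was compared by exact permutation of CPM. Plots used matplotlib 3.10.9 in Python 3.11.15. The fit was tested on simulated data. The 10 genes, the 14 lists (167 genes) and the tests were chosen with earlier results of these data known. From each list the 2 genes with the smallest unadjusted p in each comparison may be named, besides 13 fixed replication and cell cycle genes, genes overlapping one of the 10 and the 5 genes most like Gins2. Alternatives were another pseudocount (0.1), 2 other filters, another scaling, fits of 2 groups, array weights, the replicate number as a block, and each library left out; the counts without saline replicates 4 and 6 over the same tested genes and levels per length over RefSeq spans were added after the data were seen. Same-numbered libraries did not deviate together in all pairs, so the numbers were not treated as pairs.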

Additional observations from a re-analysis of the deposited data

Results flagged for a closer look

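Groups of 4 libraries, 1 gene and 1 condition each, were examined by Dixon's criterion on the log2(CPM + 1) scale. Of 46 groups, 3 had a single library far from the rest, and 2 of these were among the 20 groups of the GINS and MCM genes. The gaps over range below are on that scale, and flags on the CPM scale can differ. Chance flags about 1 in 20 groups, and 3 of 46 is close to that share. Gins4 in young serum replicate 4 was 7.49 CPM, where the other young serum libraries lay between 10.06 and 10.14 CPM (gap over range of the group 0.973). The same library had the lowest Gins2 of all. Mcm4 in saline replicate 4 was 5.11 CPM, where the other saline libraries lay between 3.32 and 3.53 CPM (0.860). Ccnb1, the mitotic cyclin B1, was 0.307 CPM in the same saline library and 0.0763 to 0.101 CPM in the others (0.885). That library also had the highest macrophage, endothelial, adipocyte and lymphocyte marker sums, and their part in these values was not tested.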

How the results depend on the processing

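With array weights, 3441, 1794 and 24 of all tested genes were called in young serum against saline, EV-depleted serum against saline and young against EV-depleted serum, in place of 0. Of the 10 genes, 1 passed with them in EV-depleted serum against saline, Gins2. Its saline values took part in its choice, so that pass is not independent support. The count was also 1 in young serum against saline, but that gene was Gins2, whose values there chose it, so this is no test. With the replicate number as a replicate block, 6 genes were called in EV-depleted serum against saline and 0 of the GINS and MCM genes in any comparison. Leaving out each library in turn gave 0 to 253 genes in young serum against saline (253 without saline replicate 2), where the count among the 10 was 0 to 1, again only through Gins2 and no test. It gave 0 to 5 genes in EV-depleted serum against saline (5 without saline replicate 2). The other filters, pseudocount, scaling and the fits of 2 groups turned no direction among the genes they kept. The filter of 1 CPM in all 11 libraries dropped Gins2 and Mcm5. Mcm5 also fell below the filter with the other scaling, and without saline replicate 4, saline replicate 6 or EV-depleted replicate 4. Its ranges therefore hold only fits that keep these libraries.

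Array weights reversed log2 values near 0: Mcm4 to 0.029 and Mcm6 to 0.025 in young serum against saline, Mcm2 to 0.00264, Mcm4 to 0.049 and Mcm7 to 0.021 in EV-depleted serum against saline, and Mcm2 to -0.00477 and Mcm5 to 0.050 between the sera. With 1 library left out, these log2 values crossed 0. In young serum against saline they were Mcm2 (-0.094 to 0.044), Mcm3 (-0.25 to 0.038) and Mcm4 (-0.13 to 0.058). In EV-depleted serum against saline they were Mcm2 (-0.12 to 0.074), Mcm4 (-0.16 to 0.074) and Mcm7 (-0.21 to 0.064). Between the sera they were Gins4 (-0.11 to 0.026), Mcm2 (-0.081 to 0.098), Mcm3 (-0.00145 to 0.17), Mcm4 (-0.13 to 0.099) and Mcm5 (-0.087 to 0.011). Gins2 stayed below 0 under every alternative run, and in EV-depleted serum against saline it was -1.34 with array weights (adjusted p = 0.0346 by limma; 0.137 to 0.771 under the others). The cause of these shifts was not tested. Depth limits Gins3 and Mcm5, at 13 to 38 and 23 to 115 reads per library.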

Other observations

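Other cell type lists, described by counts of tested genes with no test of the list, complete the setting of the GINS and MCM genes. Of all tested genes 52.5% were lower than in saline after young serum and 50.4% after EV-depleted serum. These shares were 42.5% and 39.6% without saline replicate 4, and 57.9% and 55.0% without saline replicate 6. Red blood cell markers were lower than in saline for 5 of 5 genes after young serum (median log2 difference -1.22) and 4 of 5 after EV-depleted serum (-0.52). Their sum was 1488 CPM in saline replicate 6, where the lowest saline library held 191 CPM, and without that library the counts were 5 and 4 of 5 with medians of -0.93 and -0.14. Adipocyte markers were lower for 6 of 6 in both (medians -1.40 and -1.45), and without saline replicate 4 for 4 and 6 of 6 (medians -0.26 and -0.45). Ighm, the heavy chain of IgM in B cells, gave -0.96 ± 0.20 after young serum and -1.15 ± 0.21 after EV-depleted serum, with adjusted p of 0.180 and 0.144 by limma. Fibro-adipogenic progenitor markers were lower for 5 and 8 of 8, endothelial markers for 5 and 4 of 8, and satellite cell markers for 1 and 2 of 4. Without saline replicate 4 the counts of these 3 lists were 4 and 4 of 8, 3 and 4 of 8, and 1 and 1 of 4. Muscle fibre markers split 5 lower and 5 higher of 10 in both comparisons. In these 7 lists 0 genes passed an adjusted p of 0.05 in either comparison.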
